A study of Mus musculus with 6 samples.

Results

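The transcripts of the chemokine Cxcl12 and of its receptors Cxcr4 and Ackr3 were followed in mouse embryonic stem cell progeny sorted for the CXCR4 protein itself. All probe sets carrying these gene names in the authors' deposited comparison table were taken. They are 4 probe sets of 3 genes, of 22526 probe sets and 12290 named genes in all: 1 for Cxcr4, 1 for Ackr3, which the table calls Cmkor1, and 2 for Cxcl12. CGR8 embryonic stem cells were grown as embryoid bodies, cell aggregates in which germ layers form, and were sorted on day 5 by surface CXCR4 and FLK-1. FLK-1, the product of Kdr, is a receptor of vascular endothelial growth factor. The double-positive group (3 samples) carried both proteins and the double-negative group (3 samples) carried neither. All samples come from 1 cell line with no treatment or genotype difference named, and cells with only 1 of the proteins were not analysed here. Each sample was hybridised to its own Affymetrix Mouse 430 2.0 array. The series text speaks of RNA pools and does not say what they pooled, so the spread between arrays may be that between pools.

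Cxcl12 is a secreted chemokine that guides migrating cells, among them primordial germ cells, blood progenitors and cells of the gastrulating embryo. It binds CXCR4, which signals through inhibitory G proteins and drives directed movement. It also binds ACKR3, an atypical receptor that recruits arrestins without classical G protein signalling, takes the chemokine up and so shapes its gradients. CXCR4 is a surface marker of definitive endoderm and of parts of the early mesoderm, and with FLK-1 it has been used to enrich cardiovascular progenitors.

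The values are ratios of each probe set to the median of the 3 double-negative arrays, and therefore hold no brightness: a transcript can be compared between arrays, not with another transcript. In these bulk samples fewer cells of a type and less RNA per cell cannot be told apart. The genes were chosen by name with their measured group difference (double positive against double negative) known, and the Cxcr4 protein was a sort criterion. Their differences are therefore given as a description, with standard errors and intervals but no p-value. The standard errors and 95% confidence intervals of the members and of Kdr come from a limma fit over 45037 probe sets on the log2 scale, with n = 3 arrays per group.

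The replicate 1 arrays stood apart from the others. The median ratio over all probe sets was 0.883 in double-positive replicate 1, against 1.07 and 1.02 in replicates 2 and 3. The spread of log2 ratios (SD over probe sets) was 0.809 in double-negative replicate 1 and 0.377 and 0.484 in the other double-negative arrays. These 3 spreads depend partly on the reference, since the array that is the median of a probe set has ratio 1. That held for 14.3%, 39.1% and 46.8% of probe sets in double-negative replicates 1 to 3. In the double-positive arrays the SD was 0.838, 0.716 and 0.593. The results for the 3 genes are therefore also given without both replicate 1 arrays.

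The promoters of the 3 genes are shown because both receptor genes had higher values in the double-positive cells while the ligand gene did not. Each is the 250 bases before the RefSeq start in GRCm38.p6, 5′ to 3′ on the strand of the gene. Capitals mark matches on either strand to the TATA box core TATAAA, the GC box GGGCGG and the core site of the transcription factor NRF1, GCATGCG.
Cxcr4: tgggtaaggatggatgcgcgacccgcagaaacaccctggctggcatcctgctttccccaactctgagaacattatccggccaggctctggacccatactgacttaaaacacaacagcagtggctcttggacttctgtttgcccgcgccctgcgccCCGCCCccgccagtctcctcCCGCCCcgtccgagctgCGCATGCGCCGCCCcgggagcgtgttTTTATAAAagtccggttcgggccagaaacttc
Ackr3: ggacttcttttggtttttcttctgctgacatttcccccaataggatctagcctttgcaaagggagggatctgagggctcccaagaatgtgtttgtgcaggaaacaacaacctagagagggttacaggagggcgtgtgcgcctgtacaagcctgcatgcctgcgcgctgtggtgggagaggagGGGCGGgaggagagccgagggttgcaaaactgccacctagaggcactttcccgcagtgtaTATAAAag
Cxcl12: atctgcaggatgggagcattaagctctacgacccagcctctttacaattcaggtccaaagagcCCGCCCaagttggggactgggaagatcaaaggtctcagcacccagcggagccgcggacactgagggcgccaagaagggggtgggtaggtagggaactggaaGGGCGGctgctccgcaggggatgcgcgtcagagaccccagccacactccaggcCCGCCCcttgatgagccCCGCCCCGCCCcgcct

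The Cxcr4 window lies at chr1:128592300-128592549 on the minus strand, the Ackr3 window at chr1:90203730-90203979 on the plus strand and the Cxcl12 window at chr6:117168285-117168534 on the plus strand. The genes themselves span chr1:128588199-128592299, chr1:90203980-90215724 and chr6:117168535-117181368. Both receptor genes thus lie on chromosome 1. The TATA core matched the Cxcr4 promoter at positions -32 and -30, which overlap as the reverse and forward forms. It matched the Ackr3 promoter at -8, where -1 is the base before the start. It was not found in the Cxcl12 window, and 12.4% of 32851 promoter windows of this length hold it. The NRF1 core was found in Cxcr4 alone among the 3, at -58 and -57 as overlapping reverse and forward forms directly before a GC box, and 3.02% of all windows hold it. The GC box occurred 3 times in Cxcr4, once in Ackr3 and 5 times in Cxcl12, where the last 2 share a base, and 32.7% of windows have it. The hypoxia element core GCGTG occurred once in each receptor promoter and not in Cxcl12, and 28.2% of windows hold it. No window of the 3 held ACGTG (16.6% of windows do) or the GATA factor site AGATAA (9.99%), and CCAAT (33.8%) was found once, in Ackr3. These matches describe the sequence and do not show that a factor binds there.

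Cxcr4, the signalling receptor, had clearly separated values in the sort groups. Its probe set 1448710_at gave ratios of 5.405, 8.044 and 6.006 on the double-positive arrays (replicates 1 to 3) and 0.783, 1.954 and 1 on the double-negative arrays. The lowest double-positive value was 1.47 log2 units above the highest double-negative one, which was that of replicate 2. The double-positive mean was 5.55-fold that of the double-negative arrays (log2 difference 2.47, SE 0.46, 95% interval of the fold 2.62 to 11.8). By replicate number, which the labels do not give as a pairing, the log2 differences were 2.79, 2.04 and 2.59, all in 1 direction. The smallest belonged to replicate 2, in which both arrays lay above their group means, by 0.33 in the double-positive and 0.76 in the double-negative cells. The SD of log2 values was 0.30 among double-positive and 0.68 among double-negative arrays. Without both replicate 1 arrays the log2 difference was 2.31, and with 1 added to every ratio as a pseudocount it was 1.76.

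Ackr3, the atypical receptor that captures Cxcl12, was not a sort criterion, and its difference was the highest of the 12290 genes. Probe set 1417625_s_at stood at 14.55, 12.9 and 6.403 in the double-positive arrays and at 1, 1.849 and 0.671 in the double-negative arrays. The groups were separated by 1.79 log2 units. The double-positive mean was 9.89 times the double-negative one (3.31 on the log2 scale, SE 0.535, 95% interval of the fold 4.13 to 23.7). The log2 differences by replicate number were 3.86, 2.80 and 3.25. Double-positive replicate 3 had the lowest value of its group and double-negative replicate 3 the lowest of the other, at 0.73 and 0.68 log2 units below their group means. Without both replicate 1 arrays the difference was 3.03, and with the pseudocount of 1 it was 2.46. The authors' deposited table gives this probe set a flag pass value of 4, against 6 for Cxcr4, on a scale that runs from 2 to 6 and that its header does not define. By the same ordering Cxcr4 was at place 11 of 12290 genes and at place 4 of the 8602 genes with flag value 6.

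Both receptor genes had non-overlapping groups with the double-positive arrays higher, as had 5.13% of all genes. Since the members were chosen with this contrast known, nothing is read from that share. The Ackr3 difference was 0.83 log2 units larger than that of Cxcr4, but the intervals of both overlap. Within arrays, the Ackr3 value relative to that of Cxcr4 was 1.43, 0.68 and 0.09 log2 units in double-positive replicates 1 to 3 and 0.35, -0.08 and -0.58 in the double-negative ones. These ranges overlap, while by replicate number the Ackr3 difference exceeded that of Cxcr4 by 1.08, 0.76 and 0.67 log2 units, each in the same direction. This comparison was not tested.

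Kdr, the other sorted gene, gives a scale for these values. It stood at 4.943, 13.39 and 10.44 in the double-positive and at 1, 3.929 and 0.75 in the double-negative arrays, a 6.17-fold difference (95% interval 1.91 to 20.0). Double-negative replicate 2 was the highest of its group for Cxcr4, Ackr3 and Kdr. Across the 6 arrays, which share the sort groups and the reference median, the Pearson correlation of log2 values was 0.96 between Cxcr4 and Ackr3, 0.95 between Cxcr4 and Kdr and 0.88 between Ackr3 and Kdr. The corresponding Spearman values were 0.77, 0.94 and 0.83. All of these correlations include the difference between the groups.

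**Figure D1:**
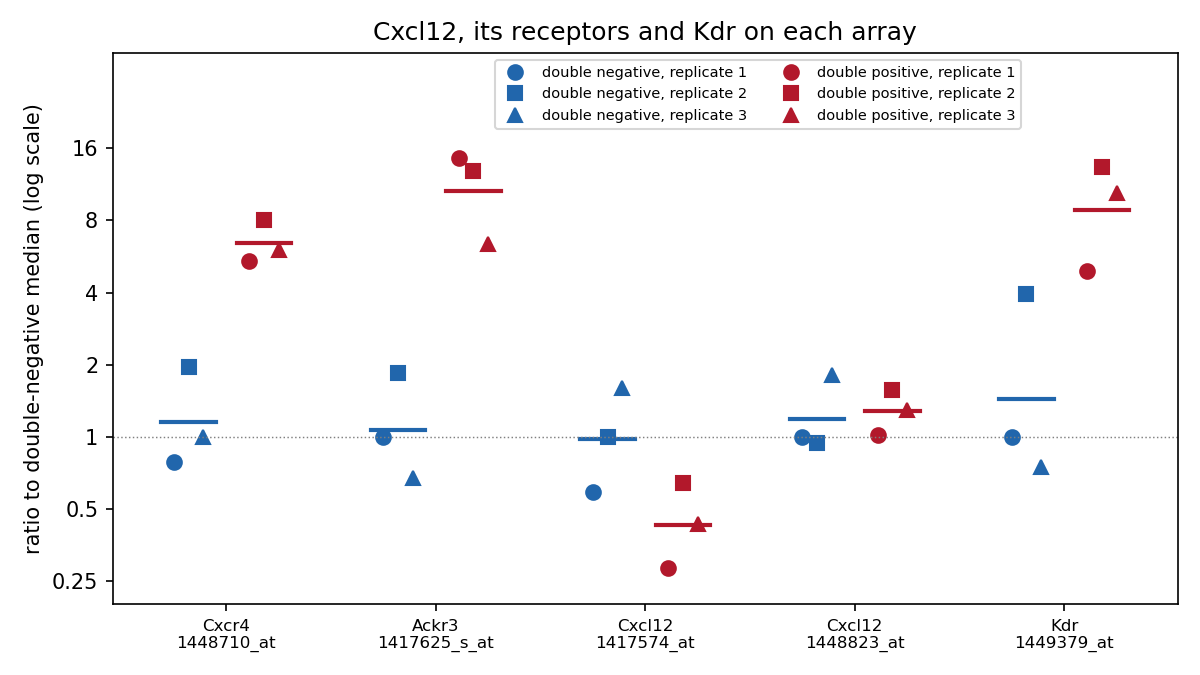
Ratio to the double-negative median (log axis) of each probe set of Cxcr4, Ackr3 and Cxcl12 and of Kdr on the 6 arrays; blue points are double-negative and red points double-positive arrays, shapes are replicate numbers and bars are geometric group means. The receptor genes and Kdr separate the groups, with Ackr3 highest at 14.55, whereas for both Cxcl12 probe sets the groups overlap.

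Cxcl12, the ligand, had no shared direction between its probe sets. Probe set 1448823_at (flag value 6) stood at 1.018, 1.574 and 1.299 in double-positive and at 1, 0.941 and 1.805 in double-negative arrays. The groups overlapped, the highest value of all being that of double-negative replicate 3. The fold was 1.07 (log2 difference 0.10, SE 0.421, 95% interval of the fold 0.538 to 2.13), so a difference of up to 2.13-fold upward or 1.86-fold downward lies within the interval. The log2 differences by replicate number were 0.03, 0.74 and -0.47, so they differed in sign. The difference turned to -0.07 without double-negative replicate 2, -0.03 without double-negative replicate 1 and -0.05 without double-positive replicate 2. It was 0.40 without double-negative replicate 3, 0.26 without double-positive replicate 1 and 0.13 without both replicate 1 arrays.

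Probe set 1417574_at of Cxcl12 (flag value 5) stood lower in double-positive cells. Its ratios were 0.284, 0.64 and 0.433 there and 0.586, 1 and 1.604 in the double-negative arrays. Double-negative replicate 1, at 0.586, lay below double-positive replicate 2, at 0.64, so the groups overlapped. The double-negative mean was 2.29-fold the double-positive one (log2 difference -1.19, SE 0.521, 95% interval of the log2 difference -2.42 to 0.03). By replicate number the differences were -1.05, -0.64 and -1.89, all in 1 direction. Without both replicate 1 arrays the difference was -1.27, and with the pseudocount of 1 it was -0.48. With the mean of both probe sets standing for the gene, Cxcl12 was at -0.55 (SE 0.399 in the fit over genes).

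The probe sets of Cxcl12 thus differed from each other by group. Within an array, the log2 value of 1448823_at minus that of 1417574_at was 1.84, 1.30 and 1.58 in double-positive replicates 1 to 3 and 0.77, -0.09 and 0.17 in the double-negative ones. These ranges did not overlap, and their means differed by 1.29 log2 units. Among all 15427 pairs of probe sets named for the same gene, 8.08% had such non-overlapping ranges in either direction. Since the gene was chosen with its values known, nothing is read from that share, and the difference between the probe sets was not tested. RefSeq lists 3 curated transcripts of Cxcl12, and which of them each probe set reads was not given in the sources used here. A statement that Cxcl12 RNA was lower in double-positive cells would rest on 1417574_at alone. The correlation of log2 values over the 6 arrays was 0.47 between both probe sets. With Ackr3 it was -0.76 for 1417574_at and -0.07 for 1448823_at, and with Cxcr4 -0.60 and 0.11.

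**Figure D2:**
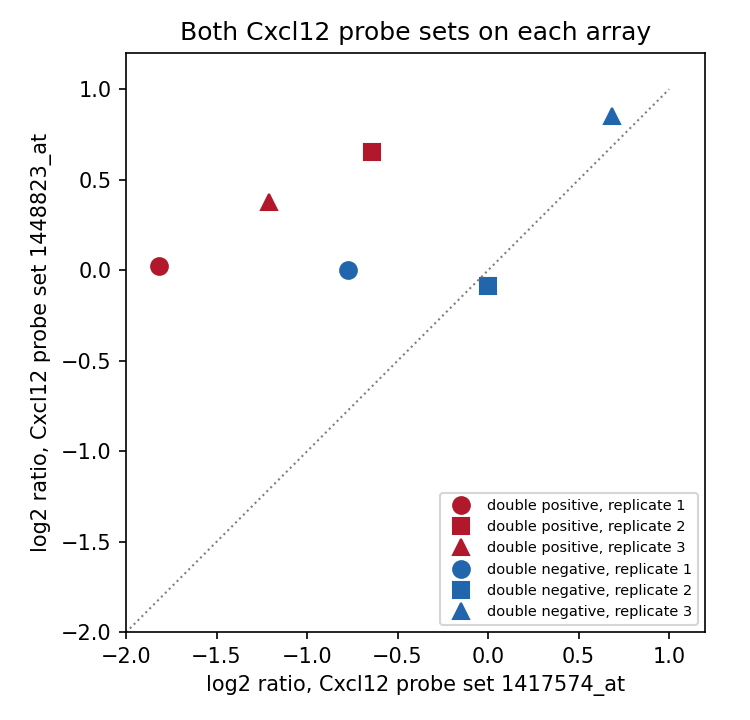
Log2 ratio of Cxcl12 probe set 1448823_at (vertical) against 1417574_at (horizontal), 1 point per array, red for double positive and blue for double negative, with shapes for replicate numbers; the dotted line marks equal values. The double-positive arrays lie farther above the line, by 1.30 to 1.84 log2 units, than the double-negative ones, at -0.09 to 0.77.

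**Figure D3:**
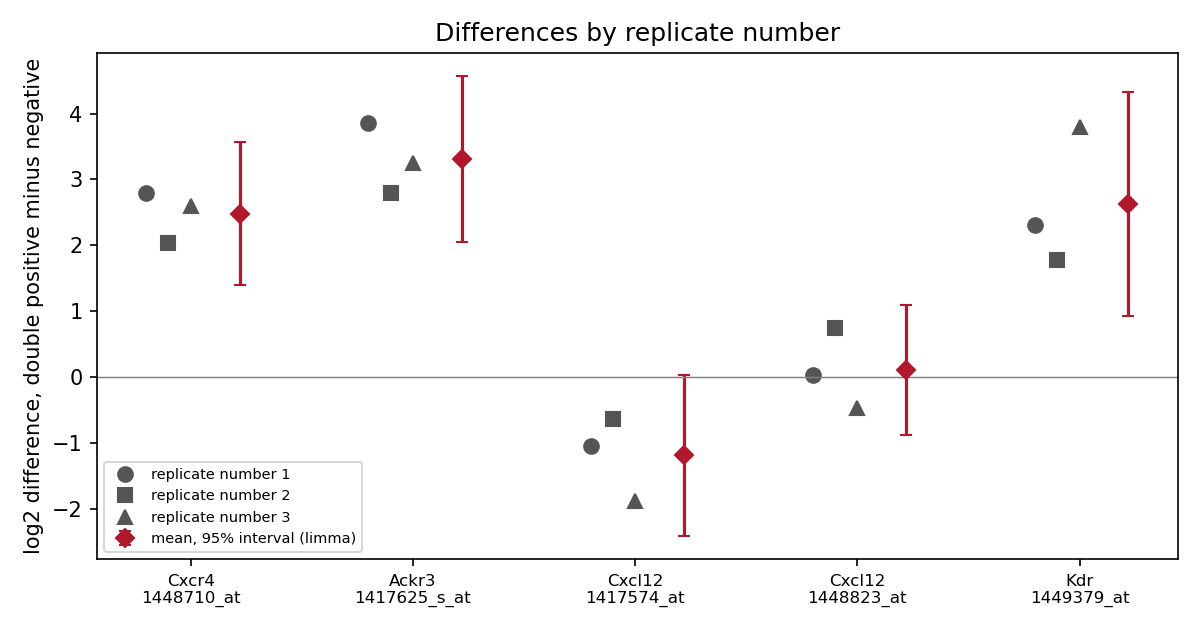
Log2 difference, double positive minus double negative, by replicate number (grey) and as the group mean with its 95% interval from limma (red), for the 4 member probe sets and Kdr. All replicate numbers lie above 2 for Cxcr4 and Ackr3 and below 0 for Cxcl12 1417574_at, and they scatter around 0 for Cxcl12 1448823_at.

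The genes with the pattern most like each member were taken by Pearson correlation of log2 values over the 6 arrays, among 8031 or 8032 conventionally named genes with flag value 6. Closest to Cxcr4 were Pinx1 (r = 0.992), a telomerase inhibitor gene, Sbsn (0.990), a secreted epidermal protein gene, the endothelial and endodermal transcription factor gene Sox7 (0.987), the hyaluronan synthase gene Has2 (0.984) and Csgalnact1 (0.983), an enzyme of chondroitin sulfate synthesis. Their log2 differences were 0.85, 0.97, 1.71, 1.79 and 1.33, all smaller than that of Cxcr4. Sox7 stood at 2.727, 5.164 and 3.399 against 0.855, 1.607 and 1, with replicate 2 the highest of both groups, as for Cxcr4. Correlations above 0.95 were reached by 27 genes for Cxcr4 and by 13 for Ackr3.

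Closest to Ackr3 was Ramp2 (r = 0.995), which encodes a partner protein of the adrenomedullin receptor. That holds for its probe set 1418187_at, at a log2 difference of 1.30, while the other 3 probe sets of Ramp2 lay in the opposite direction. Smim11 (0.994), a small membrane protein gene, the ubiquitin ligase gene Traip (0.982), the mitochondrial pyruvate carrier gene Mpc2 (0.979) and the secretory cargo receptor gene Lman1 (0.978) followed. The log2 differences of these last 4 were 0.74, 0.86, 1.17 and 0.50. For Cxcl12 1417574_at the closest genes were Oser1 (0.984), the polyadenylation factor gene Cpeb1 (0.979), the basement membrane gene Frem2 (0.976), Mllt6 (0.976) and Fgfbp3 (0.975), an FGF-binding protein gene. Cpeb1, at -1.28, had the largest difference of these. For 1448823_at they were the Golgi protein gene Yipf4 (0.973), Zfp382 (0.955), the cytokine gene Ctf1 (0.949), the kinase gene Stk35 (0.948) and the noradrenaline transporter gene Slc6a2 (0.945), with differences between -0.05 and 0.16. The lists for the probe sets of Cxcl12 share no gene. These correlations describe 6 arrays that share the sort groups and the reference median.

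The surrounding pathway was examined in 9 lists of known partners of the Cxcl12 receptors and of other chemokine genes, with 131 of 199 genes measured. Measured, here and for the cell type markers below, means named in the authors' comparison table. That table holds 22526 of the 45037 probe sets with values. Listed genes outside it were left out and were not shown to be missing from the array. Differences were tested with limma over all 12290 genes, at a threshold of 0.05 after Benjamini-Hochberg adjustment, and the standard errors of these genes come from that fit. No gene passed (0 of 12290, 0% in each direction, smallest adjusted p = 0.171). An unadjusted p under 0.05 was reached by 211 genes (1.72%) on the higher side and by 421 (3.43%) on the lower side. Together these were 632 genes, where 614 of 12290 would be expected at this level if no gene differed. Of the 131 pathway genes 4 were higher and 4 lower at that level. The groups did not overlap for 6 genes higher (4.58%) and 4 lower (3.05%), against 5.13% and 5.33% of all genes. The median log2 difference was 0.15 over the pathway genes and 0.04 over all genes.

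Partners that act directly on the receptors were examined first. Of 18 measured G protein subunit, arrestin and receptor kinase genes 0 passed and 0 had an unadjusted p under 0.05, with a median of 0.11. The largest differences among those with flag value 6 were the G protein subunit genes Gna13 (-0.69, SE 0.492), Gnai1 (-0.57, SE 0.384) and Gng2 (-0.52, SE 0.443). With flag value 5, the receptor kinase gene Grk5 was at -0.91 (SE 0.624) and the arrestin gene Arrb1 at 0.76 (SE 0.59), both with overlapping groups. Of 16 genes of receptor endocytosis and degradation 0 passed and 0 had an unadjusted p under 0.05 (median 0.17). Dnm2, the dynamin gene, had non-overlapping groups at a difference of only 0.18. The recycling GTPase gene Rab11a (0.45, SE 0.4), the endosomal ATPase gene Vps4b (-0.34, SE 0.341) and the clathrin adaptor gene Ap2m1 (0.32, SE 0.541) had the largest differences there.

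Of 33 measured signalling genes downstream of the receptors 0 passed, with a median of 0.17. The transcription factor gene Stat3 was at 0.63 (SE 0.417), the phosphatase gene Ptpn6 at -0.56 (SE 0.418) and the kinase gene Pak1 at -0.55 (SE 0.444), each with overlapping groups. Pik3cb, a phosphoinositide 3-kinase subunit gene, stood at 0.081, 0.384 and 0.629 against 1, 0.949 and 1.213 (log2 difference -1.96, SE 0.683, flag value 4), the 1 gene of this list with an unadjusted p under 0.05. Vav3, a guanine nucleotide exchange factor gene, was at 1.03 (SE 0.469) with non-overlapping groups.

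Of 8 measured genes for alternative ligands and coreceptors 0 passed, and the list median was 0.36. Adrenomedullin is a vascular peptide hormone that ACKR3 can also take up, and its signalling receptor is formed by the products of Calcrl and Ramp2. Calcrl stood at 3.606, 2.205 and 2.504 against 1, 1.222 and 0.742 (log2 difference 1.49, SE 0.356, limma adjusted p = 0.518, flag value 4). Ramp2, the gene nearest to Ackr3 in pattern, stood at 2.979, 2.637 and 2.291 against 1, 1.384 and 0.877 (1.30, SE 0.33, limma adjusted p = 0.527). The groups did not overlap for either gene, and neither passed. The other 3 probe sets of Ramp2, all with flag value 6, were at -0.57, -0.81 and -1.22 with overlapping groups, so the Ramp2 value holds for 1418187_at alone. The hormone gene Adm was at -0.39 (SE 0.348) and Ramp1, a partner gene of the related calcitonin gene-related peptide receptor, at -0.60 (SE 0.352). The groups of Ramp1 did not overlap either, with the double-positive arrays lower. Of the other 4 measured genes, Cd44, a hyaluronan receptor gene, was at 0.82 (SE 0.451) and Hmgb1 at 0.43 (SE 0.418). Mif, a cytokine that also binds CXCR4, was at 0.29 and its receptor gene Cd74 at -0.03.

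Chemokines are held on heparan sulfate chains, and of 23 measured genes for core proteins, chain synthesis and matrix 0 passed, with a median of 0.14. Sdc4, which encodes the proteoglycan syndecan 4, stood at 0.351, 0.413 and 0.322 against 1.002, 0.965 and 1. All double-positive values lay well below all double-negative ones (log2 difference -1.46, SE 0.301, limma adjusted p = 0.401). With replicate number as a block and only genes of flag value 6, where 0.593% of 8602 genes fell and 0.349% rose, Sdc4 fell (limma adjusted p = 0.0337). Over the 16 alternatives run its adjusted p ranged from 0.0337 to 1 and passed in that 1, and its difference ranged from -1.56 to -0.55. The syndecan gene Sdc1 was at 0.77 (SE 0.431). The glypican gene Gpc6 was at 0.86 (SE 0.339) with non-overlapping groups, but its other 3 probe sets were at -0.28, 0.15 and 0.75. The agrin gene Agrn was at -0.79 (SE 0.36).

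Of 5 measured genes for enzymes known to trim Cxcl12, 0 passed and 0 had non-overlapping groups (median 0.30, with 4 means higher and 1 lower). Cpm, a membrane carboxypeptidase gene, stood at 0.09, 0.133 and 0.264 against 0.258, 1.012 and 1 (log2 difference -2.12, SE 0.62, limma adjusted p = 0.649). Double-negative replicate 1 lay at the upper end of the double-positive range, so the groups overlapped slightly. Its other probe sets were at -1.06 and -3.54. With the block and flag value 6 Cpm fell (limma adjusted p = 0.0395), the 1 alternative of 16 in which it passed, with differences from -2.78 to -0.57 over them. The matrix metalloprotease gene Mmp9 was at 1.94 (SE 0.748, flag value 5), with overlapping groups. Mmp14 was at 0.35 (SE 0.567) and the cathepsin gene Ctsb at 0.30 (SE 0.491).

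Other chemokine receptor genes had smaller differences than Cxcr4 and Ackr3. Of 7 measured receptors 0 passed and 0 had an unadjusted p under 0.05, with differences from -0.29 to 0.52 and a median of 0.27. Ackr1 was at 0.43 (SE 0.326), Cxcr3 at 0.27 (SE 0.313) and Gpr182 at 0.15 (SE 0.382). Of 7 measured chemokine genes 0 passed and 0 had an unadjusted p under 0.05 (median -0.06). Cxcl1, a neutrophil attractant, was at 0.58 (SE 0.31) with non-overlapping groups, Cx3cl1 at -0.64 (SE 0.648) and Ccl25 at 0.13 (SE 0.348). The remaining 30 listed chemokines and 16 listed receptors had no probe set used here under their name.

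Transcription factors known to act on the 3 genes in various cells did not pass either (0 of 14 measured, median 0.10). Nrf1 was at -0.26 (SE 0.451) and Yy1, another factor tied to the human CXCR4 promoter, at 0.06 (SE 0.419). The hypoxia factor gene Hif1a was at 0.16 (SE 0.5). Sox17, an endoderm factor, was at -0.80 (SE 0.727) with its other probe set at 0.29, Foxo1 at -0.65 (SE 0.382) and Snai1 at 0.35 (SE 0.521). Cebpb, at -1.65 (SE 0.591, flag value 3), was the 1 gene of this list with an unadjusted p under 0.05.

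**Figure D4:**
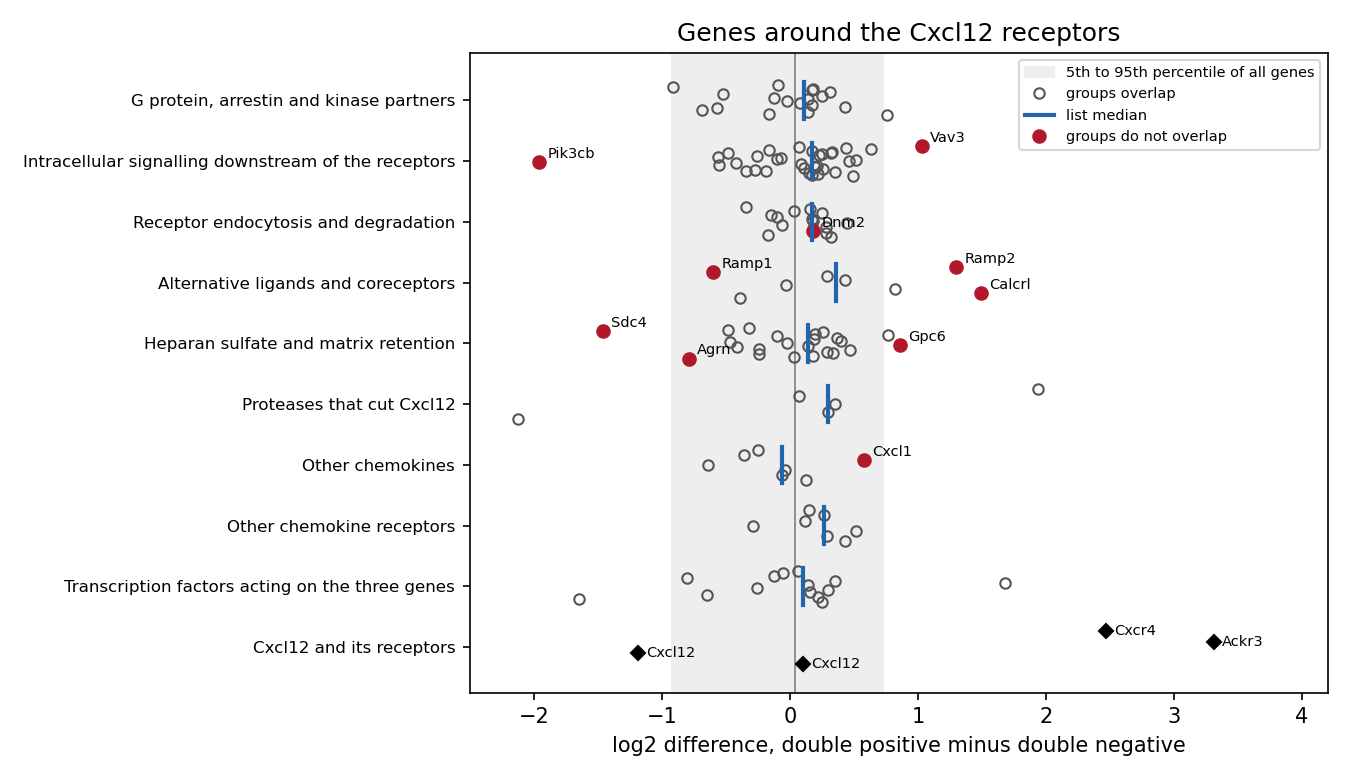
Log2 difference, double positive minus double negative, of each measured gene in the 9 pathway lists, with red points for genes whose groups do not overlap, blue bars for list medians, and black diamonds for the member probe sets; the grey band spans the 5th to 95th percentile of all genes (-0.92 to 0.73). Cxcr4 and Ackr3 lie to the right of every pathway gene plotted.

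Of 8 lists of cell type markers, the endothelial, pluripotency and germ cell lists separated the sort groups and the other 5 overlapped. Of all 12290 single genes, 5.13% had non-overlapping groups with the double-positive arrays higher and 5.33% with them lower. No such share was computed for list means, so how unusual this count of lists is was not tested. As mean log2 ratio of a list per array, the 5 measured of 9 listed endothelial markers ranged from 1.10 to 1.67 in double-positive arrays. In double-negative arrays they ranged from -0.37 to 0.57. The difference was above 0 for 4 of these markers, while Cdh5 was at -0.08 (flag value 3) with overlapping groups. The 8 pluripotency markers ranged from -1.47 to -1.12 against -0.20 to 0.19, and the 5 germ cell markers from -2.12 to -1.43 against -0.57 to 0.45. Mesoderm markers (10 measured, Kdr among them) ranged from -0.09 to 1.25 against -1.06 to 0.43. Their median log2 difference was 1.1, with 7 means higher and 3 lower. Gata6 was at 1.69 with overlapping groups, and T, the brachyury gene, was lower at -1.34 with its groups apart. Definitive endoderm markers (8 measured) ranged from -0.34 to 0.73 against -1.30 to 0.33. Their median log2 difference was 0.15, with 4 means higher and 4 lower. Mixl1 was at 1.71 and Eomes at 1.50, both with overlapping groups, and Gsc at 1.11 with its groups apart. Sox17 was at -0.80 and Foxa2 at -0.50, both with overlapping groups. Blood markers (6 measured) ranged from -1.63 to -0.11 against -0.74 to 1.99, with a median log2 difference of -1.08, 1 mean higher and 5 lower. The value of 1.99 was that of double-negative replicate 1, where the globin genes Hbb-bh1 and Hbb-y stood at 37.35 and 10.24. Both had overlapping groups, while the globin gene Hba-a1 was at -1.85 (flag value 3) with its groups apart. Visceral endoderm markers (3) ranged from -0.84 to -0.10 against -0.23 to -0.12 and neural markers (3) from -1.04 to -0.02 against -0.58 to 0.44. Of all these markers 0 passed over all genes. With the block and flag value 6, 0.349% of 8602 genes rose and 0.593% fell. Among the markers Etv2 and Sox7 rose there, as did Kdr, whose protein was a sort criterion. Sox2 and the germ cell genes Dppa3, Prdm1, Dnd1 and Tfap2c fell in that fit (limma, Benjamini-Hochberg). Its block rests on replicate pairs taken from these same data. Ratios carry no level, so whether a marker was absent cannot be seen. The part of these cell types in the values of Cxcr4, Ackr3 and Cxcl12 was not tested.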

How the data were processed

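The deposited value table holds ratios: per the values themselves, each of 45037 probe sets (64 controls left out) was divided by its median over the 3 double-negative arrays, which is 1 for 100% of them. Per the labels' protocols, biotinylated cRNA was made from 6 ug of total RNA. How probes were summarised or arrays scaled is not given in the sources used here. In addition, the authors' deposited table gives a fold, a p-value (not used) and a flag score for 22526 probe sets. Its fold equals the ratio of geometric group means for 100% of them, within 1%.

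Names were updated through RefSeq (GRCm38.p6): 11499 probe sets matched as given, 8635 through a synonym, 1165 kept their name, 115 had several candidates and 1112 none. Each of the 12290 genes stood by its probe set of highest flag score, then plainest, then lowest identifier. Log2 ratios without pseudocount were fitted with limma 3.58.1 in R 4.3.3 (lmFit, eBayes, two-sided), checked on simulated data. The simulated noise was independent between arrays, so that check does not cover deviations shared by arrays of the same replicate number. The number of arrays limits the precision, and signal over background is unknown.

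The members, gene lists, tests and naming rules were chosen with earlier results of these data known. Named were the members, Kdr, in each pathway list the 3 largest differences among genes of flag score 6, and the 5 closest patterns per member probe set. Any other gene in the text, the cell type markers included, was picked after seeing its values.

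Deviations from group means over 8602 genes of flag score 6 correlated at 0.55, 0.53 and 0.36 within replicate numbers 1 to 3 (between numbers 2 and 3 at 0.21 and 0.24). The numbers were taken as pairs on these data alone, not on the labels, and the blocked fit is an alternative. Others were pseudocounts, normalization, flag filters, the variance model, probe set averaging and leaving out arrays.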

Additional observations from a re-analysis of the deposited data

How the results depend on the processing

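The Cxcr4 difference (2.47) ranged from 2.19 to 2.85 when 1 array was left out, the Ackr3 difference (3.31) from 2.97 to 3.70, and the Cxcl12 difference of 1448823_at (0.10) from -0.07 to 0.40. With a pseudocount of 1, which compresses low ratios, they were 1.76, 2.46 and 0.04. The Cxcl12 value was -0.55 as the mean of its probe sets, which include 1417574_at by construction. The difference of 1417574_at (-1.19), added after its values were seen, was -0.48 with a pseudocount of 1 and -1.56 to -0.84 without single arrays. Quantile normalization gave 2.01, 3.01 and 0.05, and -1.23 for 1417574_at. The replicate block leaves these differences as they are, since each number has 1 array per group. The count of genes passing was 0 without and with the block, with 632 genes at an unadjusted p under 0.05 without it and 1708 with it. It was 81 with the block and flag score 6, 3 with a pseudocount of 1 and 1 without double-positive replicate 3; the cause was not tested. In the pathway lists the block with flag score 6 gave 1 heparan sulfate gene and 1 protease gene, and 0 genes of the other lists passed under any alternative run. Centring on medians and the trend and robust variance model gave 0 calls over all genes. Brightness over background is not contained in ratios, so its limits could not be weighed.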
